A study of Mus musculus with 10 samples.

Results

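The genes described here are the nuclear genes that encode subunits of respiratory complexes II, III and IV and of ATP synthase, together with the electron carrier cytochrome c, in ribosome-bound RNA of dorsal and ventral mossy cell-enriched populations of the mouse hippocampus. Earlier results of these data were known when the members were chosen. The study had already reported higher levels of oxidative phosphorylation genes in its ventral samples. Members were then defined by gene symbol, as protein-coding genes of the mouse annotation named Sdha to Sdhd, Cyc1, Cycs, or beginning with Uqcr, Atp5, or Cox followed by a number from 4 to 8 and a letter from a to c. This gave 48 of the 54838 genes in the count files, of which 44 had enough reads to be tested, among 16806 tested genes in all. Complex II held 4 members, complex III with cytochrome c 10, complex IV 16 and ATP synthase 18. The symbol rule left out Cox4i1, Cox4i2 and Ndufa4, which are also subunits of complex IV, and these are given separately. It took in Cox7a2l, a factor of respiratory supercomplexes, and Atp5s, an ATP synthase-associated factor, although neither is a core subunit.

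All 10 libraries came from young adult male mice of the C57BL/6 strain and the genotype Drd2-Cre;Eef1a1LSL.eGFPL10a/+, with no treatment. In these mice, Cre expressed under control of the Drd2 gene switches on an EGFP-tagged ribosomal protein L10a, and translating ribosome affinity purification (TRAP) pulls down tagged ribosomes with the RNA on them. The Dorsal and Ventral groups differed in the part of the hippocampus that was dissected, with 5 libraries each and 5 mice pooled per library. Each p-value therefore measures the spread between pools. According to the study, hippocampi were divided by length into a shorter dorsal and a longer ventral part, so both groups came from the same mice. The labels do not say which pools shared mice, and the main test treated all libraries as independent. The Drd2-Cre line is not restricted to mossy cells, since it also labels some GABAergic interneurons and neurons of the ventral subiculum. The ventral subiculum was trimmed before precipitation to limit contamination, but the study states that a little subicular tissue may have remained. In precipitated bulk RNA of this kind, fewer cells of a type and less RNA per cell cannot be told apart.

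Respiratory complexes sit in the inner mitochondrial membrane. Complex II passes electrons from succinate to ubiquinone, complex III passes them on to cytochrome c, and complex IV hands them to oxygen, while complexes III and IV pump protons whose return flow drives ATP synthase. Complex II is encoded by nuclear genes alone, whereas complexes III and IV and ATP synthase combine nuclear subunits with a few made from mitochondrial DNA. Several subunits of complex IV exist as pairs of isoforms, one found in most tissues and the other mainly in heart and skeletal muscle, lung or testis.

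The libraries held 11138676 to 20594364 counts on genes. Pairs that fell outside genes made up 27.0% ± 5.09 (SD, n = 5) of pairs in Dorsal and 14.4% ± 3.0 (SD, n = 5) in Ventral libraries, and the groups did not overlap (p = 0.00794 in a two-sided exact permutation test, where 5 against 5 libraries can give no smaller value). Calb2, the ventral mossy cell marker calretinin, was at 65.2 ± 9.32 CPM, or counts scaled to library size, across Dorsal and 616 ± 94.6 CPM across Ventral libraries (SD, n = 5). Drd2 itself was present in every library, at 23.4 to 31.8 CPM in Dorsal and 17.6 to 28.0 CPM in Ventral. Its log2 fold change, Dorsal over Ventral, was 0.45 ± 0.17 (SE; edgeR quasi-likelihood test, adjusted p = 0.0517). This missed the threshold, but Drd2 passed in some alternative fits, among them the DESeq2 test and those without Dorsal 2, Dorsal 3 or Ventral 2. Of 7 mossy cell markers, 2 passed the test given below with a lower level in Dorsal, beside 14.6% of all tested genes. With a higher level 3 passed, beside 19.0%. Their sum, at 1731 to 2005 and 1794 to 2102 CPM, overlapped between groups although Calb2 and Satb1 (270 ± 28.8 against 450.2 ± 33.2 CPM) were higher in Ventral and Gria2 (1143 ± 98.0 against 651 ± 73.0 CPM), Gria3 and Cyp26b1 in Dorsal libraries (SD, n = 5). After the correction for GC content and exonic length described at the end, Gria2 and Gria3 no longer passed. Their log2 fold changes were then -0.11 and 0.24, whereas Cyp26b1 still passed at 1.18. The marker levels that moved with the members are given beside the first result. CPM are scaled throughout to a common library size by the trimmed mean of M values (TMM).

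Nuclear-encoded subunits were lower in Dorsal than in Ventral libraries. Of the 44 tested members, 31 passed the test with a lower level in Dorsal, 0 passed with a higher level and 13 did not pass (edgeR quasi-likelihood test, Benjamini-Hochberg adjusted p below 0.05 over all 16806 genes). For comparison, 14.6% of all tested genes passed in that direction and 19.0% in the other. At an unadjusted p below 0.05 the higher direction still held 0 members. Log2 fold changes, Dorsal over Ventral, were below 0 in 42 members, beside 50.4% of all genes, and their median was -0.49, beside -0.0044 for all genes. By the stricter rule that also asks for an absolute log2 ratio of mean CPM above 0.58, 16 members were enriched in Ventral libraries, beside 9.85% of all genes, and 0 in Dorsal, beside 15.7%. Every Ventral library lay above every Dorsal library for 27 of the 44 members, beside 8.36% of all genes, and the reverse held for 0 members, beside 9.81%. Cox7b2 and Cox6b2 were tested only because they exceeded 1 CPM in Ventral libraries, and without these members 30 of 42 passed with a lower level in Dorsal and 15 were enriched in Ventral libraries.

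The sum over all members showed the same order. It was 8422, 8264, 7788, 8286 and 7985 CPM (Dorsal 1 to 5) against 11153, 12316, 11041, 11607 and 11672 CPM (Ventral 1 to 5). The lowest Ventral library therefore stood above the highest Dorsal library, and the ratio of means was 1.42.

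**Figure D1:**
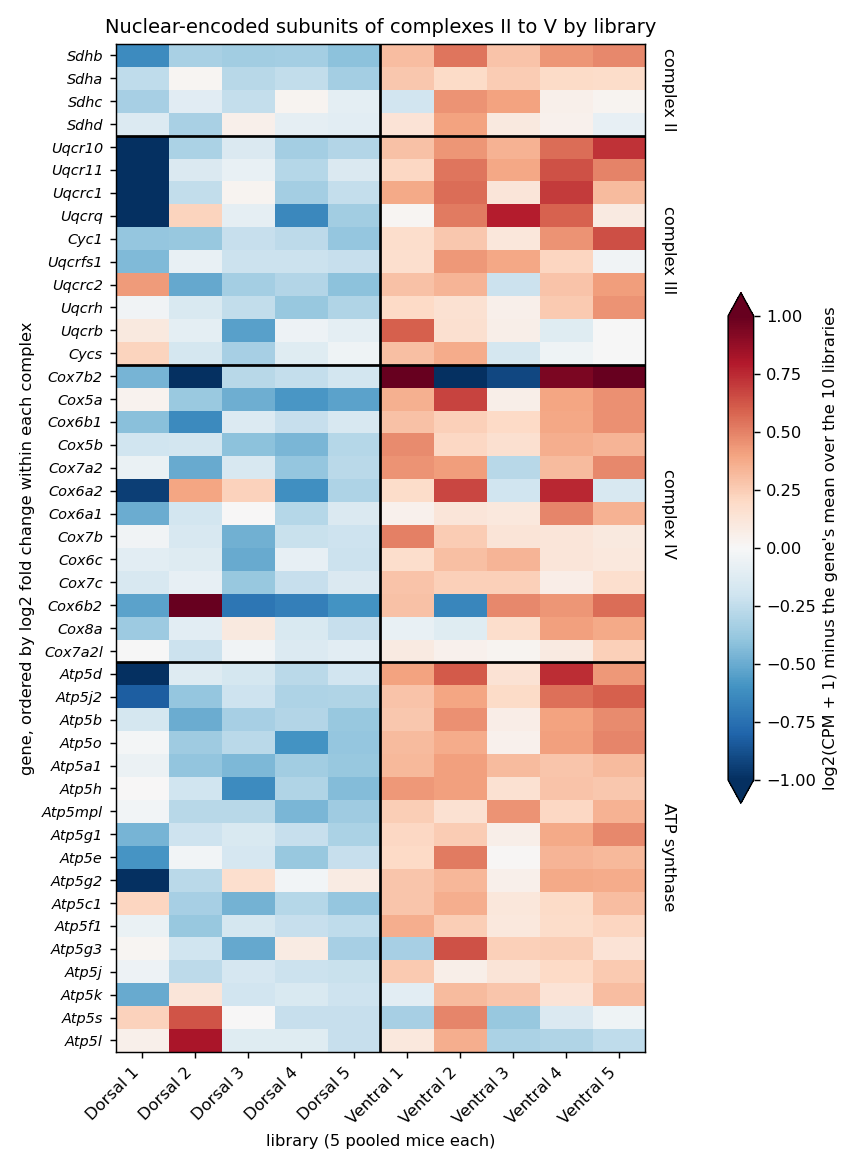
Heat map of the 44 tested members (vertical axis, grouped by complex and ordered by log2 fold change) in the 10 libraries (horizontal axis), coloured by log2(CPM + 1) minus the gene's mean over all libraries, with blue for lower, red for higher and the scale ending at 1 in each direction. Most genes are blue in the Dorsal and red in the Ventral columns, while Cox7b2, Cox6b2, Atp5s and Atp5l break the pattern in some libraries and Dorsal 1 is the darkest blue for Uqcr10, Uqcr11, Uqcrc1, Uqcrq, Atp5d and Atp5g2.

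Markers of other cell types moved between the groups too. Of 10 interneuron markers, 7 passed with a lower level in Dorsal, beside 14.6% of all genes, and 0 with a higher one, beside 19.0%. Their median log2 fold change was -0.46, close to that of the members. The sum of the list was 3378 to 4509 CPM in Dorsal and 4114 to 5371 CPM in Ventral libraries, which overlap. Of the 2 glutamate decarboxylase genes that define these cells, Gad1 passed at a log2 fold change of -0.46 ± 0.12 (adjusted p = 0.0103). Gad2, which made up most of the sum, was at 2853 ± 453 CPM across Dorsal and 3174 ± 407 CPM across Ventral libraries (SD, n = 5). It did not pass (-0.15 ± 0.12, adjusted p = 0.324), and neither did Slc32a1, also on the list (-0.06 ± 0.13, adjusted p = 0.748), or Vip (-0.29). For 5 of the 10 markers every Ventral library lay above every Dorsal one, beside 8.36% of all genes. These were Sst (-0.66), Lhx6 (-0.76), Pvalb (-0.63), Kcnc2 (-0.46) and Tac1 (-1.33), and all of them passed. Npy passed with overlapping groups (-0.40). No interneuron marker was at 0 in either group. Of 5 oligodendrocyte markers 3 passed with a higher level in Dorsal (sum 2104 to 2485 against 725 to 1378 CPM), beside 19.0% of all genes. Of 6 astrocyte markers 4 passed with a higher and 1 with a lower level (sum 1835 to 2088 against 660 to 1212 CPM). The part of these cell types in the subunit differences was not tested.

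Short DNA words bound by known regulators of respiratory genes were looked for in the promoters because the members moved together. Part of 1 window of 250 bases is shown per complex, namely its bases outside the transcribed gene. Each comes from the passing member with the lowest adjusted p among those with a word in these bases. The sequences are RefSeq promoters of build GRCm38.p6, read 5′ to 3′ on the strand of the gene, and capitals mark 2 words searched on both strands, GCGCA and GCGC separated by any 1 base (NRF1) and CCGGAAG (the ETS family, which includes GABPA).
Sdha, chr13:74350281-74350490, minus strand: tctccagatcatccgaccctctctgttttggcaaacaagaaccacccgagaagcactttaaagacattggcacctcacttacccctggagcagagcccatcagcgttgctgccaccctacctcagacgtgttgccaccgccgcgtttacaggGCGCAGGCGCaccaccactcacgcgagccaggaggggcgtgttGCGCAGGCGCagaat
Uqcrh, chr4:116075072-116075320, minus strand: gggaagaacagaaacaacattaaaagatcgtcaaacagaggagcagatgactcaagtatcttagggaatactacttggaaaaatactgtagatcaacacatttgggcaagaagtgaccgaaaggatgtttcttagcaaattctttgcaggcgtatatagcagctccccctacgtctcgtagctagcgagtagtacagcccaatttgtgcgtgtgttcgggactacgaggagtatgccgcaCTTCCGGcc
Cox6a1, chr5:115348982-115349208, minus strand: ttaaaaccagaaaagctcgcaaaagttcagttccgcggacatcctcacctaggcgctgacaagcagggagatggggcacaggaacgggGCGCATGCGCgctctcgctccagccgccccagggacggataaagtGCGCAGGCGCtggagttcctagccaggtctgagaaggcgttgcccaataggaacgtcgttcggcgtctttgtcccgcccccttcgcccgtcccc
Atp5h, chr11:115419963-115420169, minus strand: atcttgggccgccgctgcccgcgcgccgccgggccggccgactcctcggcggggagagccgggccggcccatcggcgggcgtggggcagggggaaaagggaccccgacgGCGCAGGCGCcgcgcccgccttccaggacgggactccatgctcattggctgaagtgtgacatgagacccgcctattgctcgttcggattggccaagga
Words in the unprinted bases next to the start do not appear above. These are an NRF1 word 10 bases before the start of Sdha and ETS words 16 bases before that of Cox6a1 and 38 before that of Atp5h. For Atp5h, a short stretch after the RefSeq start was not found in its annotated transcripts. Promoter entries were matched for 35 of the 44 tested members, and the 250 bases before each start were searched. The NRF1 word was found in 17.1% of these 35 promoters, beside 5.30% of 17492 protein-coding promoters of the same length, the ETS word in 22.9%, beside 9.13%, and AAGGTCA, the word of estrogen-related receptors, in 5.71%, beside 3.58%. Matches were allowed to overlap, and at least 1 of the 3 words stood in 12 member promoters, 8 of 26 whose gene passed and 4 of 9 whose gene did not. Median GC content was 54.8% for the members' windows and 55.2% for all. A word is a match of letters, and binding was not measured.

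Complex II, or succinate dehydrogenase, had 2 members that fell in Dorsal and 2 that did not pass. Sdhb, the iron-sulfur subunit, was at 47.2, 58.8, 57.8, 58.0 and 55.2 CPM (Dorsal 1 to 5) against 91.7, 107, 90.1, 100 and 103 CPM (Ventral 1 to 5). The 2 groups were far apart, with a ratio of means of 1.78 and a log2 fold change of -0.82 ± 0.11 (SE; edgeR quasi-likelihood test, adjusted p = 0.000146). Sdha, the catalytic flavoprotein, was at 221, 267, 217, 222 and 208 CPM (Dorsal 1 to 5) against 318, 302, 314, 301 and 300 CPM (Ventral 1 to 5). Its groups did not overlap either, although Dorsal 2 stood closest to the Ventral libraries, and its log2 fold change was -0.43 ± 0.09 (adjusted p = 0.00302). The membrane anchors Sdhc and Sdhd had log2 fold changes of -0.30 ± 0.13 and -0.24 ± 0.11 with adjusted p of 0.0835 and 0.0928, and the groups overlapped for both. Without Ventral 1, Sdhc passed at a log2 fold change of -0.38. Per kilobase of exon, Sdhd was the most abundant member of the complex at 202 ± 18.6 CPM across Dorsal and 239 ± 30.7 CPM across Ventral libraries, and Sdhb the least at 24.7 ± 2.13 and 44.0 ± 3.30 CPM (SD, n = 5). The median log2 fold change of the 4 genes was -0.37.

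Complex III had 7 members that fell in Dorsal among 10, 5 of them enriched in Ventral libraries by the stricter rule, and a median log2 fold change of -0.58. Cyc1, the cytochrome c1 that passes electrons on, was at 67.6, 68.0, 75.2, 73.6 and 67.5 CPM (Dorsal 1 to 5) against 100, 107, 95.9, 121 and 139 CPM (Ventral 1 to 5). These Dorsal libraries lay within a narrow band below all Ventral ones, and the log2 fold change was -0.68 ± 0.12 (adjusted p = 0.00108). Uqcr10, a small subunit next to cytochrome c1, was at 79.0, 153, 173, 151 and 156 CPM (Dorsal 1 to 5) against 234, 260, 243, 283 and 316 CPM (Ventral 1 to 5). Dorsal 1 was well below the other Dorsal libraries, which were still below every Ventral one. The log2 fold change of Uqcr10 was -0.90 ± 0.17 (adjusted p = 0.00145), and it was the most abundant member per kilobase of exon in Ventral libraries, at 458 ± 56.6 CPM.

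The other 3 enriched members were Uqcrc1, a core protein of the matrix side, and the small subunits Uqcr11 and Uqcrq, with log2 fold changes of -0.78 ± 0.19, -0.81 ± 0.21 and -0.75 ± 0.22. Uqcrq overlapped between groups, since Dorsal 2 stood at 182 CPM and Ventral 1 at 158 CPM. The Rieske iron-sulfur protein Uqcrfs1 and the hinge protein Uqcrh also fell, with log2 fold changes of -0.47 ± 0.11 and -0.45 ± 0.10. Uqcrc2, the second core protein, did not pass (-0.46 ± 0.18, adjusted p = 0.0621), with Dorsal 1 at 62.6 CPM, above every Ventral library, and the other Dorsal libraries at 32.2 to 37.8 CPM. It passed without Dorsal 1, at a log2 fold change of -0.65, and without Ventral 3, at -0.55. Uqcrb and cytochrome c itself, Cycs, did not pass either, at -0.29 ± 0.15 and -0.19 ± 0.14. These 2 genes share sequence with pseudogenes, since 72.9% and 100% of the words of 50 coding bases also occur in transcripts of other genes, and pairs that align to more than 1 place had not been counted.

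Complex IV, or cytochrome c oxidase, had 9 of 13 tested members that fell in Dorsal, 4 of them enriched in Ventral libraries, and a median log2 fold change of -0.44. Without Cox7b2 and Cox6b2, the counts were 8 and 3 of 11. Cox5b, a zinc-binding subunit, was at 195.5, 198, 168, 163 and 184 CPM (Dorsal 1 to 5) against 311, 259, 251, 288 and 284 CPM (Ventral 1 to 5). The groups were clearly separated, with a log2 fold change of -0.62 ± 0.10 (adjusted p = 0.000515). Cox6b1, on the outer face of the enzyme, was at 140, 121, 171, 160 and 168 CPM (Dorsal 1 to 5) against 231, 222, 216, 245 and 259 CPM (Ventral 1 to 5). No Dorsal library reached the lowest Ventral one, and the log2 fold change was -0.63 ± 0.11 (adjusted p = 0.00112). Cox5a, on the matrix side, fell by 0.80 ± 0.15 on the log2 scale (adjusted p = 0.00168). The small subunits Cox7c, Cox6c, Cox7b, Cox7a2 and Cox6a1 fell by 0.40 to 0.58 on the log2 scale, and only Cox7a2 among these 5 overlapped between groups, through Ventral 3 at 125 CPM. Cox7b was the most abundant member per kilobase of exon, at 359 ± 39.5 CPM across Dorsal and 488 ± 60.5 CPM across Ventral libraries. Cox8a and the supercomplex factor Cox7a2l did not pass, at -0.32 ± 0.13 and -0.20 ± 0.10 (adjusted p = 0.0686 and 0.115). Every Ventral library was nevertheless above every Dorsal one for Cox7a2l, at 98.5 to 114 against 83.2 to 96.4 CPM, and Cox8a passed without Dorsal 3, without Ventral 1 and without Ventral 2, each at a log2 fold change of -0.38.

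**Figure D2:**
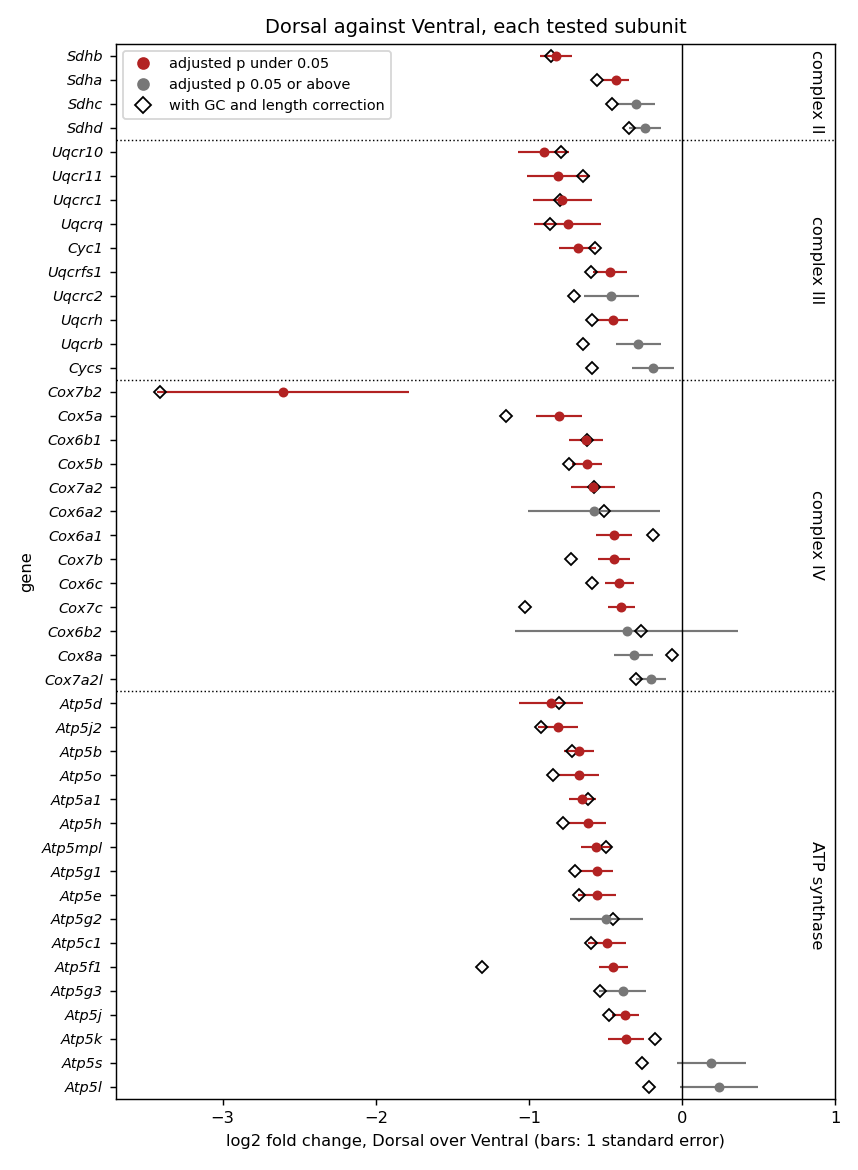
Log2 fold change, Dorsal over Ventral (horizontal axis), of each tested member (vertical axis, by complex), with 1 standard error as bars, red where the adjusted p was below 0.05 and grey otherwise, and open diamonds for the value after correcting for GC content and length of exons. Nearly all points lie left of 0, Cox7b2 lies far left with a wide bar, and Atp5l and Atp5s are right of 0 before but not after the correction.

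The isoforms of complex IV found in most tissues made up nearly all counts of each pair. The other isoform contributed 0.173% of the summed counts of its pair for Cox4i2, 0.820% for Cox6a2, 0.679% for Cox6b2, 0.290% for Cox7a1, 0.384% for Cox7b2 and 0.205% for Cox8b, and Cox8c had 2 counts in all. Cox7a1, Cox8b and Cox8c were too low to be tested, with 69, 64 and 2 counts over the 10 libraries. Cox6a2, the heart and muscle isoform, reached 1.84 ± 1.08 CPM across Dorsal and 2.93 ± 1.22 CPM across Ventral libraries (SD, n = 5) and did not pass (adjusted p = 0.319). Cox6b2, the testis isoform, had 4, 67, 3, 4 and 4 counts (Dorsal 1 to 5) against 26, 3, 21, 27 and 41 counts (Ventral 1 to 5). Dorsal 2 alone held most of the Dorsal counts, and the log2 fold change moved from -0.36 (adjusted p = 0.731) to -2.42 without that library, where it passed.

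Cox7b2, the other form of Cox7b, had 5, 0, 10, 12 and 10 counts (Dorsal 1 to 5) against 146, 0, 1, 46 and 66 counts (Ventral 1 to 5). The difference was carried by Ventral 1, 4 and 5, whereas Ventral 2 and 3 were below most Dorsal libraries. Its log2 fold change was -2.61 ± 0.82 (adjusted p = 0.0220), but no Dorsal library exceeded 1 CPM, so that it could be tested only through the group where it was high. The call was lost without Dorsal 2 (-2.25) and without Ventral 1 (-1.80), with DESeq2 (-2.39), the likelihood-ratio test (-2.41) and the dispersions of edgeR 3 (-2.41), and with the share of pairs outside genes as a covariate. Cox4i2, the lung isoform of subunit 4, followed the same libraries with 34, 18 and 25 counts in Ventral 1, 4 and 5 and at most 5 counts in any other library. It passed narrowly at -2.27 ± 0.85 (adjusted p = 0.0449), but was likewise tested only through these Ventral libraries, as no other exceeded 1 CPM. The call was lost with every other test (DESeq2, the likelihood-ratio test and the dispersions of edgeR 3, -2.13 to -2.12), the replicate block (-1.99), the GC and length correction (-2.13, and -1.74 with the block) and the covariate, and when any Dorsal library or Ventral 1, 4 or 5 was left out (-2.54 to -1.82).

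Within pairs, no difference in an isoform ratio passed after adjustment over 9 comparisons (6 pairs and 3 c-subunit shares). Cox7a1 relative to Cox7a2 was 1.49 log2 units higher in Dorsal libraries (-7.70 ± 0.93 against -9.19 ± 0.15, SD, n = 5; exact permutation test, two-sided, p = 0.0397, adjusted p = 0.357), from 2 to 14 counts of Cox7a1 per library. The other 5 pairs gave differences between -1.08 and 0.18 log2 units with p from 0.413 to 0.698 and an adjusted p of 0.762 each.

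**Figure D3:**
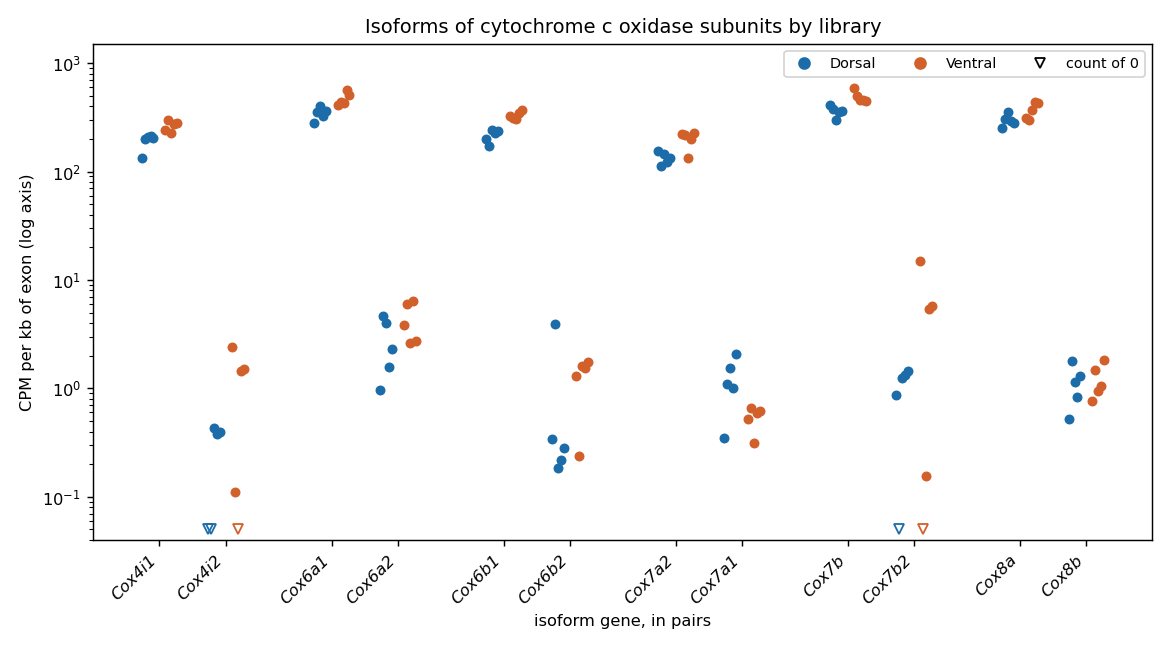
CPM per kilobase of exon (log axis) of the isoform pairs of complex IV (horizontal axis), with 1 point per library, blue for Dorsal, orange for Ventral and open triangles for a count of 0. The widely expressed form of each pair lies above 100 CPM per kilobase and its partner below 20, and Cox4i2 and Cox7b2 are spread most among the Ventral libraries.

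The subunits of complex IV outside the symbol rule behaved in a similar way. Cox4i1, the main form of subunit 4, was at 205, 306, 321, 326 and 316 CPM (Dorsal 1 to 5) against 372, 468, 350, 425 and 433 CPM (Ventral 1 to 5). Its groups did not overlap and the log2 fold change was -0.47 ± 0.13 (adjusted p = 0.0134). The call was lost with the share of pairs outside genes as a covariate (-0.63), where 6 of the 31 member calls were kept. Ndufa4, first assigned to complex I and found with complex IV, was at 409, 390, 387, 362 and 377 CPM (Dorsal 1 to 5) against 451, 577, 873, 561 and 607 CPM (Ventral 1 to 5). Ventral 3 stood highest and no Dorsal library reached the lowest Ventral one, with a log2 fold change of -0.67 ± 0.14 (adjusted p = 0.00303).

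ATP synthase had 13 of 17 tested members that fell in Dorsal, 6 of them enriched in Ventral libraries, and a median log2 fold change of -0.55. In the catalytic F1 head, Atp5a1, the alpha subunit, was at 465, 368, 354, 382 and 372 CPM (Dorsal 1 to 5) against 607, 644, 605, 587 and 603 CPM (Ventral 1 to 5). Dorsal 1 was the highest Dorsal library and remained below all Ventral ones (log2 fold change -0.65 ± 0.09, adjusted p = 0.000228). Atp5b, the beta subunit that holds the catalytic sites, was at 1058, 845, 950, 976 and 915 CPM (Dorsal 1 to 5) against 1442, 1641, 1249, 1580 and 1654 CPM (Ventral 1 to 5). It was the most abundant ATP synthase member by CPM, its groups did not overlap, and its log2 fold change was -0.67 ± 0.10 (adjusted p = 0.000266). The gamma, delta and epsilon subunits of the central stalk, Atp5c1, Atp5d and Atp5e, fell by 0.49 ± 0.12, 0.86 ± 0.21 and 0.55 ± 0.12 on the log2 scale. Atp5c1 overlapped between groups through Dorsal 1 at 278 CPM.

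In the stalk that holds the head and in the membrane part, Atp5j2, the f subunit, was at 49.3, 67.2, 76.2, 70.8 and 71.4 CPM (Dorsal 1 to 5) against 108, 116, 101, 130 and 134 CPM (Ventral 1 to 5). All Ventral libraries exceeded all Dorsal ones, with a log2 fold change of -0.81 ± 0.13 (adjusted p = 0.000599). The peripheral stalk genes Atp5o, Atp5h, Atp5f1 and Atp5j fell by 0.37 to 0.67 on the log2 scale and Atp5mpl, a small membrane subunit, by 0.56 ± 0.10, with no overlap for any of these 5. A second annotated Atp5o gene, whose exons lie wholly within other genes, had 0 counts in every library. Atp5k, the e subunit, was the most abundant member per kilobase of exon at 456 ± 70.5 CPM across Dorsal and 590 ± 68.9 CPM across Ventral libraries (SD, n = 5), and passed with overlapping groups at -0.37 ± 0.12 (adjusted p = 0.0307). That call was lost when any library other than Dorsal 2 or Ventral 1 was left out, at -0.37 to -0.29.

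The 3 genes for the c subunit, which encode the same mature protein with different import sequences, were all lower in Dorsal by value. Atp5g1 passed at -0.56 ± 0.11 (adjusted p = 0.00197), with 90.7 to 113 CPM in Dorsal and 131 to 176 CPM in Ventral libraries, while Atp5g3 and Atp5g2 did not, at -0.39 ± 0.16 and -0.50 ± 0.24 (adjusted p = 0.0674 and 0.120). Atp5g3 was at 877, 755, 606, 915 and 689 CPM (Dorsal 1 to 5) against 688, 1348, 1023, 1024 and 952 CPM (Ventral 1 to 5). Ventral 1 lay within the Dorsal range, and without it Atp5g3 passed at -0.50. Atp5g3 made up 86.9% ± 2.80 of the counts of the 3 genes in Dorsal and 85.4% ± 3.19 in Ventral libraries, Atp5g1 12.1% ± 2.37 and 13.5% ± 2.96, and Atp5g2 1.02% ± 0.46 and 1.09% ± 0.24 (SD, n = 5). No difference in these shares passed (exact permutation tests, p from 0.421 to 0.762, adjusted p of 0.762 each). Coding words of 50 bases were shared with other genes for 99.7% of Atp5g1 and 100% of Atp5g2 but for 0% of Atp5g3, so that the shares hold for uniquely aligned pairs alone.

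Only Atp5l and Atp5s had values above 0, and neither passed. Atp5l, the g subunit, was at 11.3, 19.9, 9.88, 9.91 and 9.11 CPM (Dorsal 1 to 5) against 11.7, 14.3, 8.53, 8.60 and 8.92 CPM (Ventral 1 to 5). Dorsal 2 was the highest and the groups overlapped (0.24 ± 0.25, adjusted p = 0.496), and without Dorsal 2 the value was -0.04. Every coding word of Atp5l occurs in other genes, 14 in number. Atp5s was at 0.19 ± 0.22 (adjusted p = 0.536). Among the 9 tested members with at least 50% of coding words shared, 4 passed, and among the other 35, 27 passed. Of the 21 members with no coding word shared, 14 passed.

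Of 6 subunit genes of mitochondrial DNA, 2 could be tested, and both were higher in Dorsal libraries. Whether their RNA was on tagged ribosomes was not tested. The cytochrome b gene of complex III, mt-Cytb, was at 329, 469, 363, 316 and 339 CPM (Dorsal 1 to 5) against 91.1, 60.2, 127, 83.1 and 106 CPM (Ventral 1 to 5). Dorsal libraries were all higher, with a log2 fold change of 1.96 ± 0.17 (adjusted p = 1.03e-05). The catalytic subunit of complex IV, mt-Co1, was at 636, 726, 717, 659 and 665 CPM (Dorsal 1 to 5) against 204, 106, 336, 213 and 243 CPM (Ventral 1 to 5). Its groups did not overlap and the log2 fold change was 1.63 ± 0.21 (adjusted p = 0.000124), but the call of mt-Co1 was lost with the share of pairs outside genes as a covariate (1.16). The genes mt-Co2, mt-Co3, mt-Atp6 and mt-Atp8 had 8, 16, 5 and 0 counts over all libraries. The first 3 share 99.9% to 100% of their coding words with other annotated genes and mt-Co1 shares 51.0%. In contrast, mt-Cytb and mt-Atp8, the gene with 0 counts, share 0%.

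**Figure D4:**
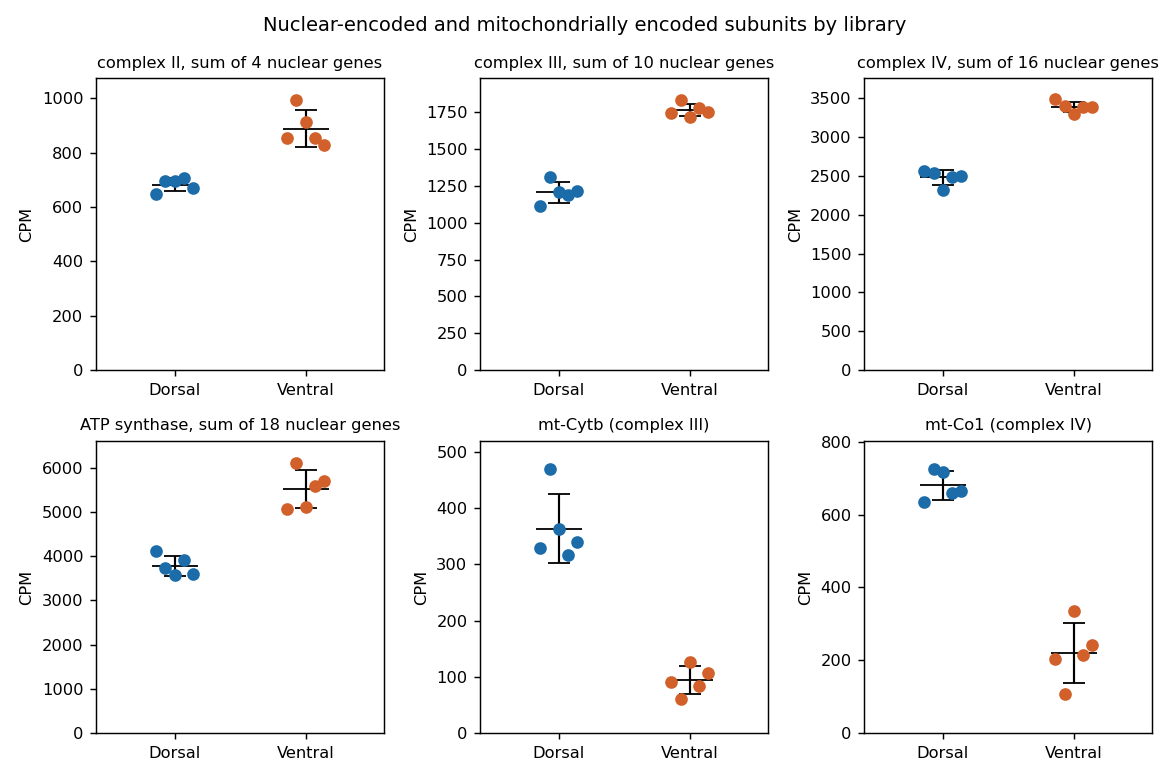
Summed CPM of the nuclear genes of each complex and CPM of mt-Cytb and mt-Co1 (vertical axes, from 0) in the 5 Dorsal (blue) and 5 Ventral (orange) libraries, with the mean and SD as lines. The Ventral libraries are higher in all 4 nuclear panels, with ratios of means of 1.30 for complex II, 1.46 for complex III, 1.37 for complex IV and 1.46 for ATP synthase, and lower in both mitochondrial panels.

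Assembly factors, which help to insert cofactors and join subunits, mostly did not pass the test. Of 33 tested among 36 listed, 9 passed with a lower and 1 with a higher level in Dorsal, beside 14.6% and 19.0% of all genes, 23 did not pass, and the median log2 fold change was -0.41. With the GC and length correction 14 passed with a lower level, beside 22.7% of all genes, and with the share of pairs outside genes as a covariate 6, beside 2.34%. Fmc1, needed for building the F1 head, was at 9.97, 19.4, 12.3, 15.0 and 14.5 CPM (Dorsal 1 to 5) against 25.6, 28.8, 32.2, 32.1 and 33.0 CPM (Ventral 1 to 5). Ventral libraries were all higher (log2 fold change -1.07 ± 0.17, adjusted p = 0.000593). Coa3 and Surf1, factors of complex IV, fell by 0.84 ± 0.18 and 0.65 ± 0.14 on the log2 scale (adjusted p = 0.00309 and 0.00386), and the call of Surf1 was lost with that covariate (-0.81). Coa5, also a factor of complex IV, was the exception, at 0.38 ± 0.09 (adjusted p = 0.00637), but its call was lost after the correction for GC content and length (0.21) and with the covariate (0.34).

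Of 10 regulators of respiratory genes, 1 passed, with a higher level in Dorsal, beside 19.0% of all genes in that direction. With the GC and length correction 4 passed. Ppargc1a and Tfam had a lower level, beside 22.7% of all genes in that direction. Nrf1 and Pprc1 had a higher level, beside 2547 of all 16806 genes. Nrf1, nuclear respiratory factor 1, was at 26.5, 12.5, 22.1, 27.3 and 25.6 CPM (Dorsal 1 to 5) against 14.1, 12.2, 11.9, 11.5 and 13.2 CPM (Ventral 1 to 5). Dorsal 2 lay among the Ventral libraries and the other 4 above them all (log2 fold change 0.84 ± 0.21, adjusted p = 0.00798). Ppargc1a, the coactivator PGC-1α, did not pass (-0.23 ± 0.09, adjusted p = 0.0684), although all Ventral libraries, at 197 to 219 CPM, stood above all Dorsal ones, at 156 to 190 CPM, and it passed without Dorsal 1 at -0.26 and with the GC and length correction at -0.52. The related coactivator Pprc1 was at 0.47 ± 0.21 (adjusted p = 0.10) and passed without Dorsal 1 and with that correction, each at 0.57.

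Correcting for the GC content and the exonic length of each gene moved the median of all genes to -0.14 and that of the members to -0.61. With it, 35 of the 44 members passed, all lower in Dorsal and 29 of them shared with the uncorrected 31, beside 22.7% of all genes in that direction. Cox6a1 (-0.19) and Atp5k (-0.18) were lost, and Sdhc, Uqcrc2, Uqcrb, Cycs, Cox7a2l and Atp5g3 were gained. Of all calls, 60.0% were lower in Dorsal with the correction and 43.5% without it. With the share of pairs outside genes as a covariate, whose groups do not overlap so that it cannot be told apart from the region, 6 members passed (Sdhb, Uqcr10, Uqcrfs1, Uqcr11, Uqcrq and Atp5j2), beside 2.34% of all genes in that direction, and 38 of the 44 values were below 0 with a median of -0.46. The same number of members, 31, passed without Dorsal 1, which stood apart from its group for several members.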

How the data were processed

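TRAP libraries from Dorsal and Ventral hippocampus (5 each, 5 mice pooled per library) were analysed. The deposited values are whole-number counts of read pairs per Ensembl gene, made by the authors from Ovation-amplified, 50 bp paired-end reads aligned to GRCm38 with STAR 2.5.2b and counted with HTSeq 0.7.2. The strand setting and annotation release are not given in the sources used here, so genes that share exons with another gene are uncertain. Only uniquely aligned pairs reached the counts. Amplified reads are not independent molecules, and counts on genes per library set the depth.

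Symbols, lengths and GC content came from GENCODE vM21 (GRCm38). Genes that exceeded 1 CPM in 2 or more libraries were tested with edgeR 4.0.16 in R 4.3.3 (TMM, quasi-likelihood test with the dispersions of edgeR 4, Benjamini-Hochberg over all tested genes, adjusted p below 0.05). SE was taken from the log2 fold change and the F statistic (their quotient after taking the root of F). Isoform ratios, with 0.5 added to each count, and c-subunit shares were tested by exact permutation over libraries. Genes named were, per complex, the 2 lowest adjusted p, the highest count per exonic length and the largest opposite value, with all isoforms and the 3 lowest adjusted p of the assembly and regulator lists; other names serve description. Members and lists were chosen with earlier results of these data known. The fits were tested on simulated data. Replicate numbers were not used to pair libraries in the main test. Same-numbered deviations correlated at 0.016 on average (range -0.032 to 0.069), other pairs at -0.0021. These values cannot show whether same-numbered pools shared mice.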

Additional observations from a re-analysis of the deposited data

Results flagged for a closer look

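Single libraries stood apart from the other 4 of their group for some genes named in the report, by the gap to the nearest library relative to the range. Chance flags about 1 in 20 groups, or 6.4 of the 128 examined, and 12 were found. Dorsal 1 accounted for 7 of them, with low values for Atp5d (39.0 CPM), Uqcr11 (28.2 CPM), Uqcr10 (79.0 CPM) and Cox4i1 (205 CPM) and high values for Atp5a1 (465 CPM), Atp5c1 (278 CPM) and Uqcrc2 (62.6 CPM). Dorsal 2 was high for Sdha (267 CPM), Atp5l (19.9 CPM) and Cox6b2 (4.35 CPM). Ventral 3 was low for Uqcrc2 (39.9 CPM) and Cox7a2 (125 CPM). The cause was not tested.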

How the results depend on the processing

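Across 24 alternatives, 0 members passed with a higher level in Dorsal. The count lower in Dorsal was 30 to 33 when 1 library was left out and also under other scalings, filters and tests. It was 35 with the GC and length correction, alone or with the replicate block, and 6 with the share of pairs outside genes as a covariate, where complexes II, III, IV and ATP synthase had 1, 4, 0 and 1. The stricter fold rule gave 16 members in the main test. It gave 26 with the GC and length correction, 26 when the replicate block was added and 5 with the covariate. In the main test 9.85% of all genes met this rule with a lower level in Dorsal, but their share under these alternatives is not given. By adjusted p alone, 14.6% of all genes passed lower in Dorsal in the main test. With the correction this share was 22.7%, with the block added 22.9% and with the covariate 2.34%. The rise from 16 to 26 therefore cannot be read as particular to the members. The replicate block alone gave the same 31 members and changed no member's call.

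Values of members and of other genes described singly that changed sign were, with the covariate, Uqcrb (0.25), Uqcrc2 (0.24), Cox7b2 (1.17), Cycs (0.30), Cox4i2 (0.0067), the regulator Ppargc1a (0.022) and Gad2 (0.33). With it, 6 of 33 assembly factors, among them Tmem70, which had passed, and 3 of 10 regulators, Ppargc1a included, changed sign. With the GC and length correction they were Atp5l (-0.21, and -0.27 with the block) and Atp5s (-0.26, and -0.30 with the block). Gria2 (-0.11, alone or with the block) and Slc32a1 (0.020, and 0.037 with the block) changed sign with it too. When 1 library was left out, Atp5l ranged from -0.037 to 0.35 and Slc32a1 from -0.10 to 0.030. The Dorsal minus Ventral share of Atp5g2 ranged from -0.20 to 0.099 percentage points when 1 library was left out, and the Cox7b2 to Cox7b ratio from -1.79 to 0.18 log2 units. For these results the cause was not tested. The dispersions of edgeR 3, chosen after seeing the data, gave 30 members. Depth limits the minor isoforms, at 0 to 146 counts per library.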
